A study of Mus musculus with 26 samples.

Results

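Glycolysis turns glucose into pyruvate, and a set of genes that cells use more when oxygen is low overlaps with it. The genes described here are 38 listed symbols of glucose and lactate transporters, the enzymes of glycolysis, the enzymes that decide the fate of pyruvate, and genes of the hypoxia response. They were taken from the deposited expression tables by symbol. Of the 38, 37 were found among the 24015 genes listed, and all 37 were among the 13477 genes with enough reads to be tested. The symbol Pkm2 was not found, and the tables list this pyruvate kinase gene as Pkm.

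RNA was sequenced from 15 libraries of mouse embryonic stem cells (mESCs), all from a line that carries a Stella:GFP reporter and all cultured with leukemia inhibitory factor (LIF). Wild-type (wt) mESCs gave 1 library in serum+LIF and 2 in 2i+LIF, a serum-free medium with inhibitors of MEK and GSK3β. Knockout clones made with CRISPR-Cas9 gave 2 libraries without Prdm14 (Prdm14-/-, clones F10 and G6) and 3 without Mtgr1 (Mtgr1-/-, clones A3, C1 and C3). The same clones were also studied with a FLAG-HA-tagged (FH) protein put back: 3 libraries of FH-Mtgr1, 2 of FH-Prdm14, and 2 of E294K, a Prdm14 point mutant made to lose its binding to Mtgr1. Cells other than those in 2i+LIF were collected after 5 days in serum+LIF. Each knockout library is therefore 1 clone, each rescue line carries the knockout of its parent clone, and both forms of Prdm14 were overexpressed. Levels are in RPKM, the reads on a gene scaled to its length in kilobases and to the depth of the library. Values of the Mtgr1 lines are given in the order A3, C1 and C3, and those of the Prdm14 lines in the order F10 and G6.

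Cells take up glucose through Slc2a family transporters, split it in the upper steps of glycolysis and gain ATP in the lower steps. Pyruvate is then reduced to lactate by lactate dehydrogenase or oxidised in mitochondria, a choice that pyruvate dehydrogenase kinases turn toward lactate. When oxygen is scarce, the prolyl hydroxylases of the Egln family no longer mark the hypoxia-inducible factors for degradation through Vhl, and these factors, paired with Arnt, raise the transcription of most glycolytic genes together with genes of mitophagy, collagen hydroxylation and blood vessel growth. Naive mESCs are known to use both glycolysis and respiration, and cells that move toward the post-implantation epiblast rely more on glycolysis.

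The libraries held 10668572 to 21218414 reads on genes (median 13793727). Prdm14 was at 3.60 and 1.96 RPKM in Prdm14-/- cells, 79.8 and 116 in FH-Prdm14 and 89.9 and 105 in E294K, and at 2.77 in the wt serum+LIF library. Cbfa2t2, which encodes Mtgr1, was at 19.9, 18.6 and 18.02 RPKM in Mtgr1-/- cells and at 27.96, 26.7 and 25.5 in FH-Mtgr1, so that the RNA level does not show whether protein was made. The authors reported from Western blotting that clones A3, C1 and C3 had lost the Mtgr1 protein. Pou5f1, 1 of 5 mESC markers read here, was between 309 and 943 RPKM in every library, and Nanog, another of them, between 25.1 and 285 RPKM. Some libraries stood apart from others of their condition. In a chi-square test of the reads over genes, the statistic divided by its degrees of freedom was 46.9 and 42.8 for Mtgr1-/- clone C3 against A3 and C1, and 6.99 for A3 against C1. For FH-Mtgr1 clone C3 it was 21.7 and 27.7, and 9.44 between the other two. It was 69.2 for the 2i+LIF pair and 24.4 for the Prdm14-/- pair. In bulk RNA, fewer cells of a type and less RNA per cell cannot be told apart.

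The first question was how these genes stand in cells without Mtgr1 against the same clones with FH-Mtgr1. Most of the glycolytic and hypoxia response genes were lower without Mtgr1, with at least 1 lower gene at each step from hexokinase to lactate dehydrogenase. For hexokinase and enolase the lower genes, Hk1 and Eno2, were less abundant forms. The more abundant Hk2 was higher, and Eno1 did not pass the test. A glucose transporter, a lactate transporter and Eno3 were higher too. In a fit over all genes with limma (Benjamini-Hochberg adjusted p under 0.05), 26 of the 37 genes were lower and 4 were higher in Mtgr1-/- cells. Among all genes tested 26.1% were lower and 26.2% higher, or 52.3% in either direction. Of the 37 genes, 13 fell at least 2-fold and 0 rose as much, against 10.1% and 9.68% of all genes (limma). The median log2 fold change of the 37 genes was -0.81, and that of all genes tested was -0.01. Without both C3 libraries, a setting chosen after seeing the data, 26 genes were lower and 3 higher.

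**Figure D1:**
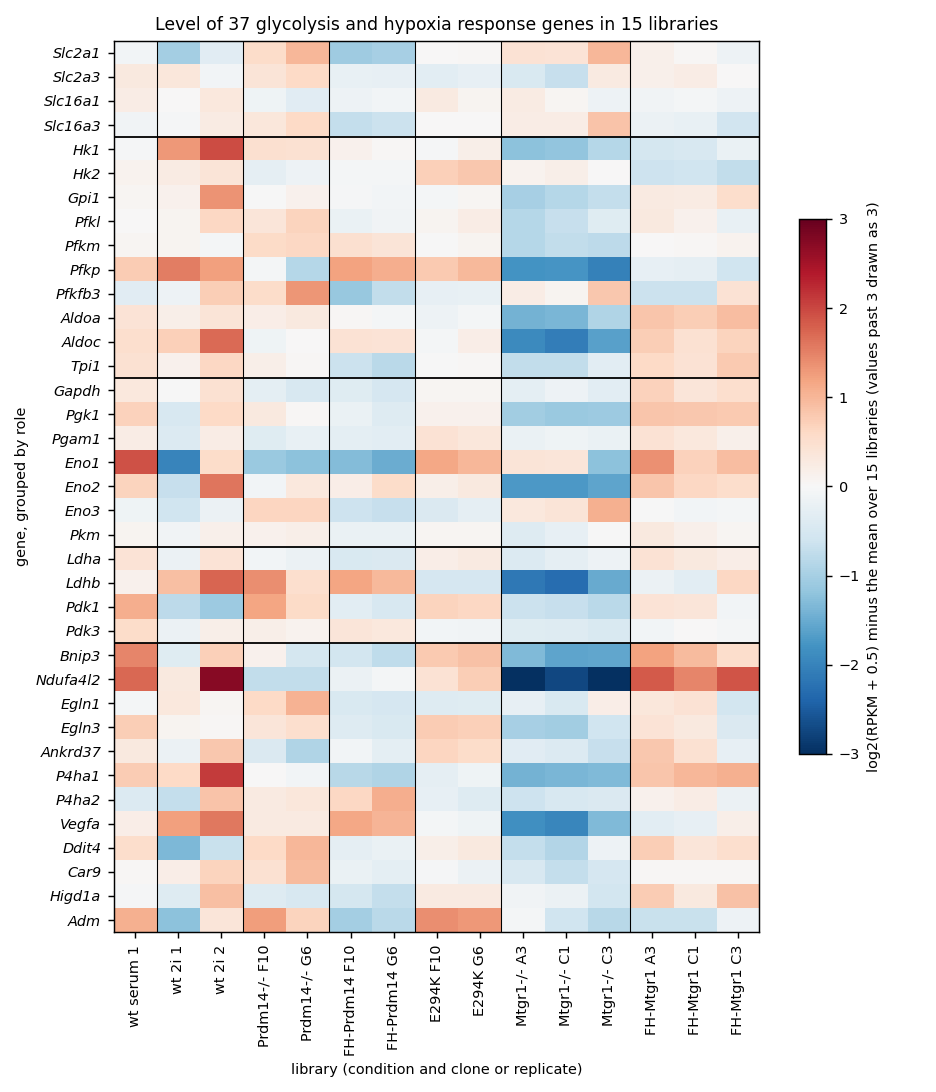
Colours give the log2(RPKM + 0.5) of each of the 37 genes in each of the 15 libraries, minus the gene's mean over the libraries, with the genes grouped by role. Blue cells fill most of the Mtgr1-/- columns, where Ndufa4l2 falls past the end of the scale in 2 clones, while the FH-Mtgr1 columns are mostly red.

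The summed level was also lower without Mtgr1, but it rests mainly on a few abundant genes. Mean RPKM was 639 against 2635 for Aldoa, 345.5 against 1281 for Pgk1 and 964 against 1654 for Gapdh. Most stretches of Pgk1 and Gapdh also occur elsewhere in the genome, as given below. All 37 genes together came to 6163, 6426 and 7477 RPKM in Mtgr1-/- cells and to 13037, 11814 and 12292 RPKM in FH-Mtgr1. As a share of all reads on genes this was 1.39% to 1.71% without Mtgr1 and 2.50% to 2.72% with it. The wt serum+LIF library, at 11476 RPKM, lay near the FH-Mtgr1 lines, Prdm14-/- cells were at 10108 and 10106 RPKM, E294K at 9566 and 9784 RPKM, and FH-Prdm14 at 8016.5 and 7679.5 RPKM. The 2i+LIF libraries, at 8828 and 12521 RPKM, lay far apart.

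**Figure D2:**
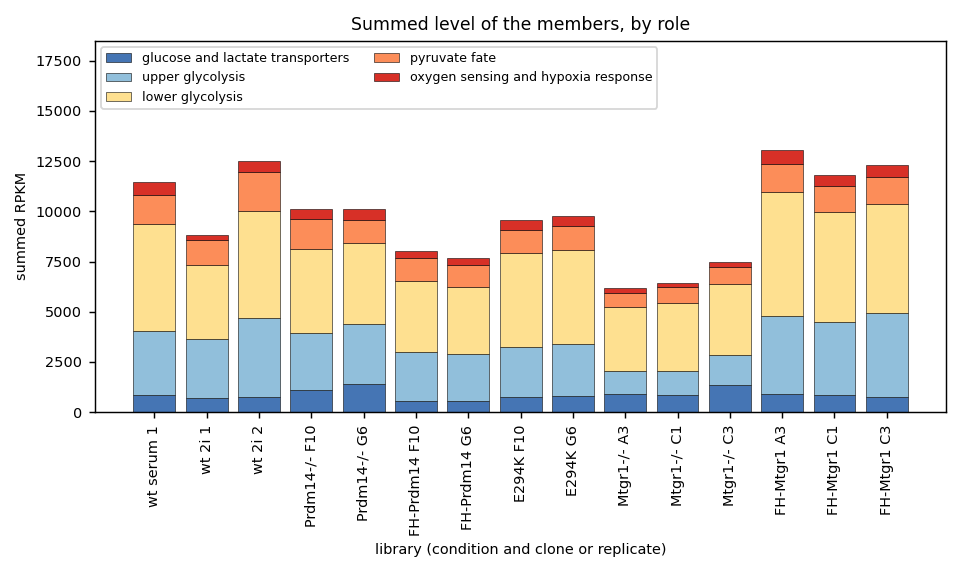
Bars give the RPKM summed over the 37 genes in each library, and their colours split the sum by role. The 3 Mtgr1-/- bars, between 6163 and 7477 RPKM, are the lowest, and their upper and lower glycolysis segments are shorter than those of FH-Mtgr1.

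Markers of other cell types also moved between these lines. The summed level of 6 trophoblast markers was 71.0 to 74.2 RPKM in Mtgr1-/- cells and 18.3 to 26.9 RPKM in FH-Mtgr1, mainly through Hand1 at 33.7, 34.7 and 36.1 against 1.87, 2.06 and 3.31 RPKM. Of the 4 trophoblast markers tested 3 were higher, and none of the 6 was at 0 in these libraries. Summed markers of extraembryonic endoderm were at 7.11 to 10.2 against 11.3 to 16.8 RPKM, with 2 of 4 tested lower, and those of fibroblasts at 12.9 to 26.5 against 20.9 to 27.5 RPKM, with 2 of 3 tested higher and 1 lower. The 5 mESC markers summed to 1087 to 1479.5 RPKM against 1318 to 1593 RPKM, with 1 of the 5 higher and 1 lower. Their part in the result was not tested, here and in the other comparisons.

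Of the 4 transporters of glucose and lactate, 2 were higher without Mtgr1 and 2 did not pass the test. Slc2a1, the main glucose importer of proliferating cells, was at 509.8, 504 and 752 RPKM in Mtgr1-/- cells and at 424, 391 and 343 RPKM in FH-Mtgr1 (log2 fold change 0.59, SE 0.20, adjusted p = 0.0257, limma). The groups did not overlap, but clone C3 was well above the other clones, and without this library the adjusted p was 0.107. It was also above the threshold with both C3 libraries left out (0.249), without FH-Mtgr1 clone C1 (0.0546) or C3 (0.0895), and with a block for the parental clone (0.0511). Slc16a3, which exports lactate, was at 118, 119 and 184 RPKM against 90.4, 87.2 and 69.0 RPKM (log2 fold change 0.75, SE 0.17, adjusted p = 0.00338, limma), again highest in C3. Slc2a3, a high-affinity glucose transporter, and Slc16a1, a second monocarboxylate carrier, did not pass the test, with 95% intervals of the log2 fold change of -0.85 to 0.03 and -0.13 to 0.43.

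In the upper steps of glycolysis, 8 of the 10 genes were lower and 1 was higher. Hexokinases trap glucose in the cell as glucose 6-phosphate, and here both forms moved in opposite directions. Hk2, the inducible form, was at 84.9, 89.5 and 80.2 RPKM without Mtgr1 and at 51.1, 52.4 and 47.1 RPKM with FH-Mtgr1, a mean of 84.9 ± 4.64 (SD, n = 3) against 50.2 ± 2.72 (SD, n = 3) (log2 fold change 0.75, SE 0.10, adjusted p = 6.87e-05, limma). Hk1, the broadly expressed form, was at 11.4, 11.8 and 15.0 against 18.9, 19.4 and 23.6 RPKM and was called lower. Gpi1, which converts glucose 6-phosphate to fructose 6-phosphate, was at 136, 151 and 164 against 325, 319.9 and 394 RPKM. For these genes every Mtgr1-/- clone lay on 1 side of every FH-Mtgr1 clone.

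Phosphofructokinase, the committed step of the pathway, is built from 3 forms, and all were lower without Mtgr1. The platelet form Pfkp showed the largest difference, at 14.5, 14.8 and 12.4 RPKM against 43.8, 43.2 and 34.3 RPKM. The muscle form Pfkm was at 20.7, 22.7 and 22.0 against 38.2, 39.2 and 41.3 RPKM, and the liver form Pfkl at 87.3, 96.9 and 123 against 192, 172 and 134 RPKM. Clone C3 of Mtgr1-/- and clone C3 of FH-Mtgr1 were the closest pair for Pfkl. Pfkfb3 makes the fructose 2,6-bisphosphate that activates phosphofructokinase. It did not pass the test, at 11.5, 10.4 and 17.6 against 6.15, 6.09 and 13.4 RPKM, and its groups overlapped.

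Aldolases cut fructose 1,6-bisphosphate into the 2 triose phosphates, and both forms expressed in these cells fell. Aldoa was among the most abundant of the 37 genes, at 553, 576 and 787 RPKM in Mtgr1-/- cells and 2635, 2458 and 2812 RPKM in FH-Mtgr1. Its mean without Mtgr1 was 0.242 times that with FH-Mtgr1. Aldoc, the form known from brain, was at 6.24, 5.56 and 7.73 RPKM against 41.7, 34.7 and 39.7 RPKM (log2 fold change -2.49, SE 0.21, adjusted p = 4.08e-06, limma). Tpi1 interconverts the triose phosphates and was at 223, 226 and 301 against 565, 509 and 647 RPKM. None of these groups overlapped.

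**Figure D3:**
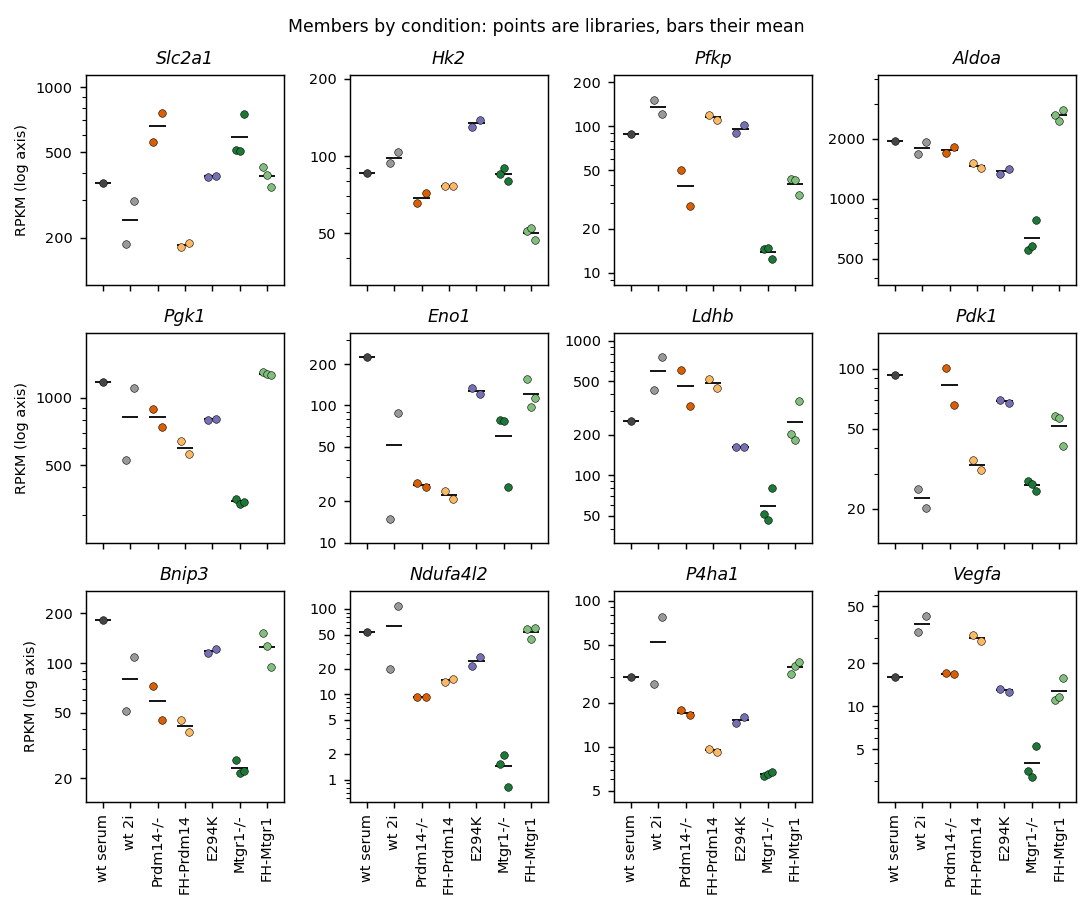
Points give the RPKM of 12 of the genes in each library on a log axis, and bars the mean of the libraries of a condition. The Mtgr1-/- points of Aldoa, Pgk1, Bnip3, Ndufa4l2, P4ha1, Pfkp and Vegfa lie below those of every other condition, whereas those of Slc2a1 and Hk2 lie above FH-Mtgr1.

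In the lower steps, where ATP is gained, 5 of 7 genes were lower and 1 was higher. Gapdh, which oxidises glyceraldehyde 3-phosphate and is often used as a reference gene, was at 944, 1029.5 and 918 RPKM against 1850.3, 1470.3 and 1641 RPKM. Pgk1, the first of the ATP-forming enzymes, was at 356, 337 and 344 against 1300.4, 1280.4 and 1261 RPKM, with clones within each condition close together. Pgam1 moves the phosphate group of 3-phosphoglycerate and was at 511, 530.1 and 512 against 793, 728 and 651 RPKM. Pkm, the pyruvate kinase that closes the pathway, was at 1289.6, 1409.7 and 1670.3 against 2051, 1874 and 1757 RPKM, the smallest relative change of these genes. The block for the parental clone raised its adjusted p from 0.0237 to 0.0618 (limma).

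The 3 enolases behaved differently from each other. Eno2, the neuronal form, was at 1.33, 1.30 and 1.51 RPKM without Mtgr1 and at 10.2, 8.79 and 8.15 RPKM with FH-Mtgr1 (log2 fold change -2.34, SE 0.41, adjusted p = 0.000488, limma). Eno3, the muscle form, was at 17.7, 18.6 and 29.8 against 14.0, 13.3 and 13.4 RPKM and was called higher (log2 fold change 0.64, SE 0.18, adjusted p = 0.0099, limma). Eno1, the form found in most cells, was at 78.9, 76.8 and 25.4 against 155, 97.3 and 114 RPKM and did not pass the test, with a 95% interval of the log2 fold change of -2.31 to 0.01. The low value was that of C3, and the near-identical copy Eno1b was at 102, 103 and 165 RPKM against 126, 126 and 122 RPKM, with its highest value in C3.

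All 4 genes that act on pyruvate were lower. Ldha, the subunit that favours lactate formation, was at 616, 685 and 736 RPKM against 1104, 1008 and 943 RPKM. Ldhb, the subunit known from heart, fell further, with 51.4, 46.8 and 80.1 RPKM against 204, 183 and 354 RPKM. In both conditions Ldhb was highest in clone C3. Pdk1, a kinase that shuts off pyruvate dehydrogenase and a known target of hypoxia-inducible factors, was at 27.6, 26.7 and 24.6 against 58.3, 56.8 and 41.1 RPKM. Pdk3, another such kinase, was at 12.7, 12.4 and 11.9 against 15.3, 16.6 and 15.6 RPKM.

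Of the 12 genes of oxygen sensing and the hypoxia response, 9 were lower without Mtgr1 and 3 did not pass the test. The largest change of the 37 genes was that of Ndufa4l2, a mitochondrial protein induced by low oxygen that is related to a subunit of cytochrome oxidase. It was at 1.51, 1.96 and 0.826 RPKM in Mtgr1-/- cells and at 58.0, 44.4 and 60.4 RPKM in FH-Mtgr1, a mean of 1.43 ± 0.569 (SD, n = 3) against 54.3 ± 8.64 (SD, n = 3) (log2 fold change -4.86, SE 0.45, adjusted p = 6.92e-06, limma). Its broadly expressed paralog Ndufa4, at 238, 228 and 162 against 291, 223 and 295 RPKM, did not pass the test. Bnip3, a mitophagy receptor, was at 26.0, 21.7 and 22.2 against 152, 128 and 94.4 RPKM (log2 fold change -2.37, SE 0.26, adjusted p = 2.05e-05, limma). P4ha1, the catalytic subunit of a collagen prolyl hydroxylase, was at 6.34, 6.53 and 6.79 against 31.7, 35.7 and 37.9 RPKM (log2 fold change -2.33, SE 0.27, adjusted p = 2.99e-05, limma). Each of these genes had a gap between the 2 conditions that was wider than the spread of clones within either.

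Vegfa, the growth factor of blood vessels, was at 3.51, 3.22 and 5.27 against 11.1, 11.6 and 15.8 RPKM. Ddit4, an inhibitor of mTORC1 signalling, was at 111, 100 and 165 against 308, 237 and 260.1 RPKM. Egln3, an oxygen-sensing prolyl hydroxylase that hypoxia itself induces, was at 6.87, 6.66 and 9.23 against 18.9, 17.6 and 10.3 RPKM, and clone C3 of both conditions lay closest together. Egln1, the main prolyl hydroxylase of the family, did not pass the test, at 15.7, 13.5 and 21.4 against 23.6, 25.4 and 12.6 RPKM with overlapping groups. Of the remaining genes Ankrd37, Higd1a and Car9 were lower, at 7.32 to 9.49, 17.9 to 24.3 and 0.198 to 0.322 RPKM without Mtgr1 and 10.1 to 21.3, 32.3 to 48.8 and 0.666 to 0.682 RPKM with it. P4ha2 and the peptide hormone gene Adm did not pass the test. Adm was low in both conditions, at 1.54, 0.921 and 0.703 against 0.840, 0.853 and 1.42 RPKM.

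Of the 30 calls, 23 held in every one of the alternative settings and library removals run. The others were Slc2a1, Pgam1, Car9, Ankrd37, Pkm, Higd1a and Pdk3. Higd1a lost its call without both C3 libraries, with an adjusted p of 0.124 (limma).

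Several of the most abundant of these genes have processed copies elsewhere in the genome, and how the authors counted reads with more than 1 place is not given in the sources used here. The share of 51-base stretches of the transcript with an identical copy elsewhere in the mouse genome (NCBIM37, also called mm9) was 92.7% for Pgk1, 91.7% for Pgam1, 85.6% for Gapdh, 71.9% for Eno1 and 60.9% for Bnip3. It was between 5% and 50% for 7 genes, Aldoa with 6.87% among them, and under 5% for 25 genes. The libraries were read with 51 or 76 bases, and which library had which length is not stated. Of the 25 genes with under 5%, 15 were lower, 4 were higher and 6 were not called in Mtgr1-/- cells, with a median log2 fold change of -0.68. In the 5 genes with at least 50%, 4 were lower and 1 was not called. The levels of those 5 genes are therefore uncertain, and the part of the copies in their changes was not tested.

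Promoters of these genes are shown because hypoxia-inducible factors are known to bind DNA at a short core motif, spelled ACGTG here and searched on both strands. CACGTG holds a match on each strand, and these overlap. In windows from 250 bases before to 50 bases after the start of transcription (RefSeq, GRCm38.p6), 28 of the 49 windows of 35 genes held it, or 57.1%, against 25.4% of the windows of all genes tested and 19.6% of all 32851 windows. Windows of the listed genes and of all genes tested were alike in base composition, with a median GC content of 62.3% and 61% and a median of 20 CpG in both. No window was given for Ndufa4l2 and Slc2a3, so these 2 genes were not searched. By gene, 25 of 35 held a match, or 71.4%, against 29.4% of the 9925 tested genes with a window. The list was made to include genes of the hypoxia response, so its higher share is no independent result. Of the 25 genes with a match, 18 were lower and 3 higher in Mtgr1-/- cells, and of the 10 without a match 7 were lower and 1 higher. A match describes the letters of the window and is not a measured binding site. The stretches below are 100 bases of the promoters of the 4 genes with the largest decrease and the 2 with the largest increase that held a match before a start, 5′ to 3′ on the strand of the gene, with the match in capitals. They begin 158, 100, 176, 191, 102 and 100 bases before a start of the gene, in the order given. They lie at chr7:138909565-138909664 (minus strand) for Bnip3, chr10:59323196-59323295 (plus) for P4ha1, chr7:126799331-126799430 (minus) for Aldoa, chrX:106186909-106187008 (plus) for Pgk1, chr6:82774457-82774556 (minus) for Hk2 and chr11:120948967-120949066 (plus) for Slc16a3.
Bnip3: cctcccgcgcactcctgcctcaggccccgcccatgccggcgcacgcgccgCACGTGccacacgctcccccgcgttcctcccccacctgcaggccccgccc
P4ha1: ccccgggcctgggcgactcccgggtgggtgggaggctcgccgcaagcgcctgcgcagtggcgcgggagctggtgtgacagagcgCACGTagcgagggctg
Aldoa: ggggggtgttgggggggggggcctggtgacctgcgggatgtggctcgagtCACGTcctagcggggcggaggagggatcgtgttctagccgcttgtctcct
Pgk1: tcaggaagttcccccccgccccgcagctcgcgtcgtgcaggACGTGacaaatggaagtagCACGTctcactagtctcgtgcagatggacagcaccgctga
Hk2: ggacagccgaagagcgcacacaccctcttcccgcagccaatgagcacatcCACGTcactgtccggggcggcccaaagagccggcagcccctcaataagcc
Slc16a3: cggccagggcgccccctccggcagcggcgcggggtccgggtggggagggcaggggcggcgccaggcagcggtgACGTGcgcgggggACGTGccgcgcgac
Only promoters with a match were printed, so these stretches cannot show whether the motif goes with the direction of change.

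The second question was whether the same genes move in cells without Prdm14 against the same clones with FH-Prdm14. Of the 37 genes 13 were higher and 2 lower in Prdm14-/- cells (limma, adjusted p under 0.05), against 11.4% higher and 13.8% lower among all genes, or 25.2% in either direction. Of these 15 genes, 6 had been called in the opposite direction in the Mtgr1 comparison, 5 in the same direction and 4 were not called there. At least 2-fold, 8 rose and 1 fell, against 6.35% and 6.77% of all genes. The median log2 fold change was 0.32 for the 37 genes and -0.09 for all genes. Only 2 libraries stand on each side, and the count fell to 7 without Prdm14-/- clone G6, to 7 without FH-Prdm14 clone F10 and to 8 without FH-Prdm14 clone G6. Eno3, Slc16a3, Pdk1, Slc2a1 and Pfkp kept their call in every alternative run. Of the marker sums, that of extraembryonic endoderm was at 19.8 and 8.81 RPKM in Prdm14-/- and 4.73 and 6.14 RPKM in FH-Prdm14, with 2 of 4 tested higher. That of trophoblast was at 39.0 and 45.0 against 39.5 and 43.0 RPKM, while 2 of the 4 tested, Gata3 and Eomes, were higher. This sum rests mainly on Tfap2c, at 30.3 and 27.2 against 35.4 and 38.6 RPKM, and Hand1 was at 1.48 and 7.68 against 1.09 and 1.19 RPKM. The fibroblast sum was at 15.2 and 19.5 against 12.6 and 14.7 RPKM, with 1 of 3 tested higher. Of the 5 mESC markers 3 were lower in Prdm14-/- cells.

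Relative to FH-Prdm14, 3 of the 4 transporters were higher, and relative to the wt serum+LIF library 0 of 4 were called. Slc2a1 was at 554 and 762 RPKM in Prdm14-/- cells and at 182 and 189 RPKM in FH-Prdm14 (log2 fold change 1.81, SE 0.24, adjusted p = 0.00028, limma). Slc16a3 was at 130.2 and 156 against 61.8 and 64.7 RPKM, and Slc2a3 at 382 and 445 against 248 and 246 RPKM. In each the higher value was that of clone G6. The call of Slc2a3 was lost with the block for the parental clone (adjusted p = 0.0737, limma).

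Of the 10 genes of the upper steps 3 were higher and 1 was lower than in FH-Prdm14. Against the single wt serum+LIF library, 1 of the 10, Pfkm, was called higher and 1, Pfkp, lower. That library was at 7.73 RPKM for Pfkfb3, 514 for Tpi1, 159 for Pfkl and 88.7 for Pfkp. Pfkfb3 was at 14.6 and 25.7 RPKM against 4.24 and 5.70 RPKM (log2 fold change 1.88, SE 0.41, adjusted p = 0.00524, limma). Tpi1 was at 422 and 385 against 242 and 213 RPKM and Pfkl at 204 and 251 against 137 and 147 RPKM, a call that the block removed (adjusted p = 0.0875, limma). Pfkp went down, to 50 and 28.5 RPKM from 120.0 and 111 RPKM (log2 fold change -1.60, SE 0.23, adjusted p = 0.000381, limma). Aldoa, at 1700.1 and 1819 against 1516 and 1424 RPKM, and Aldoc, at 22.8 and 25.4 against 33.9 and 33.2 RPKM, did not pass the test.

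Among the lower steps only Eno3 passed, at 22.3 and 22.4 RPKM against 8.93 and 8.49 RPKM (log2 fold change 1.31, SE 0.22, adjusted p = 0.00114, limma). Eno3 was at 12.8 RPKM in the wt serum+LIF library. Pgk1 was at 894 and 744 against 641 and 560.3 RPKM and Gapdh at 944 and 823 against 896 and 819 RPKM, and neither passed. Eno1 was low on both sides, at 27.3 and 25.3 and 23.9 and 20.9 RPKM, against 226 RPKM in the wt serum+LIF library. Its copy Eno1b was higher without Prdm14, at 228 and 214 against 128 and 129 RPKM. Of the genes acting on pyruvate, Pdk1 was higher than in FH-Prdm14, at 100.4 and 65.6 against 35.0 and 31.4 RPKM, with 93.1 RPKM in the wt serum+LIF library. Ldhb was at 602 and 325 against 517 and 449.5 RPKM with overlapping groups.

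In the hypoxia response 5 of 12 genes were higher and 1 was lower. Egln1 was at 28.3 and 38.7 RPKM against 13.3 and 13.1 RPKM (log2 fold change 1.30, SE 0.30, adjusted p = 0.00719, limma). Adm was at 4.62 and 2.94 against 0.551 and 0.733 RPKM (log2 fold change 1.88, SE 0.43, adjusted p = 0.00687, limma), a change from a low level. Ddit4 was at 278 and 364 against 153 and 158 RPKM, Egln3 at 18.3 and 20.3 against 10.7 and 10.2 RPKM and Car9 at 1.07 and 1.72 against 0.494 and 0.437 RPKM. These oxygen sensors and stress genes were above FH-Prdm14 in both clones, but the call of Egln3 was lost with the block (adjusted p = 0.0535, limma). The single wt serum+LIF library was at 17.75 RPKM for Egln1, 4.015 for Adm, 266 for Ddit4, 24.1 for Egln3 and 0.675 for Car9. Against that library, 0 of the 12 genes were called higher and 2 lower in Prdm14-/- cells. Vegfa was lower, at 16.99 and 16.8 against 31.6 and 28.7 RPKM (log2 fold change -0.81, SE 0.22, adjusted p = 0.0186, limma), and the wt serum+LIF library was at 16.1 RPKM. Ndufa4l2, at 9.39 and 9.32 against 13.9 and 15.1 RPKM, Bnip3, at 72.2 and 45.5 against 44.9 and 38.4 RPKM, and P4ha1, at 17.8 and 16.6 against 9.73 and 9.30 RPKM, did not pass.

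Whether the effects of the 2 knockouts differ was tested directly, as the log2 fold change of Mtgr1-/- against FH-Mtgr1 minus that of Prdm14-/- against FH-Prdm14. Of the 37 genes, 24 had a lower value for Mtgr1 and 1, Hk2, a higher one (limma, adjusted p under 0.05). Among all genes the shares were 14.3% and 17.1%, or 31.4% in either direction. The difference was at least 2-fold (1 on the log2 scale) and negative in 21 genes, against 9.63% of all genes, and it was positive by as much in 0, against 10.9%. The median of the difference was -1.22 for the 37 genes and 0.06 for all genes. The most negative values were those of Ndufa4l2 (-4.25, SE 0.70, adjusted p = 0.00109), P4ha1 (-3.15, SE 0.43, adjusted p = 0.000382), Bnip3 (-2.83, SE 0.41, adjusted p = 0.000517), Pgk1 (-2.33, SE 0.33, adjusted p = 0.000452) and Aldoa (-2.32, SE 0.23, adjusted p = 5.45e-05), all from limma. With a block for the parental clone the calls of Eno2 (adjusted p = 0.0652), Adm (0.0559) and Pkm (0.0514) were lost (limma). Hk2 differed by 0.90 (SE 0.15, adjusted p = 0.00131, limma). For Pfkp, lower in both knockouts, the difference was 0.10 with a 95% interval of -0.54 to 0.73. Of the markers, 3 of 4 of extraembryonic endoderm and 1 of 3 of fibroblasts had a lower value for Mtgr1, 2 of 5 of mESCs a higher one, and of 4 of trophoblast 2 had a higher and 1 a lower value. The rescue lines of the 2 knockouts differ too, so the difference holds for knockout against rescue and not for the knockouts alone.

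**Figure D4:**
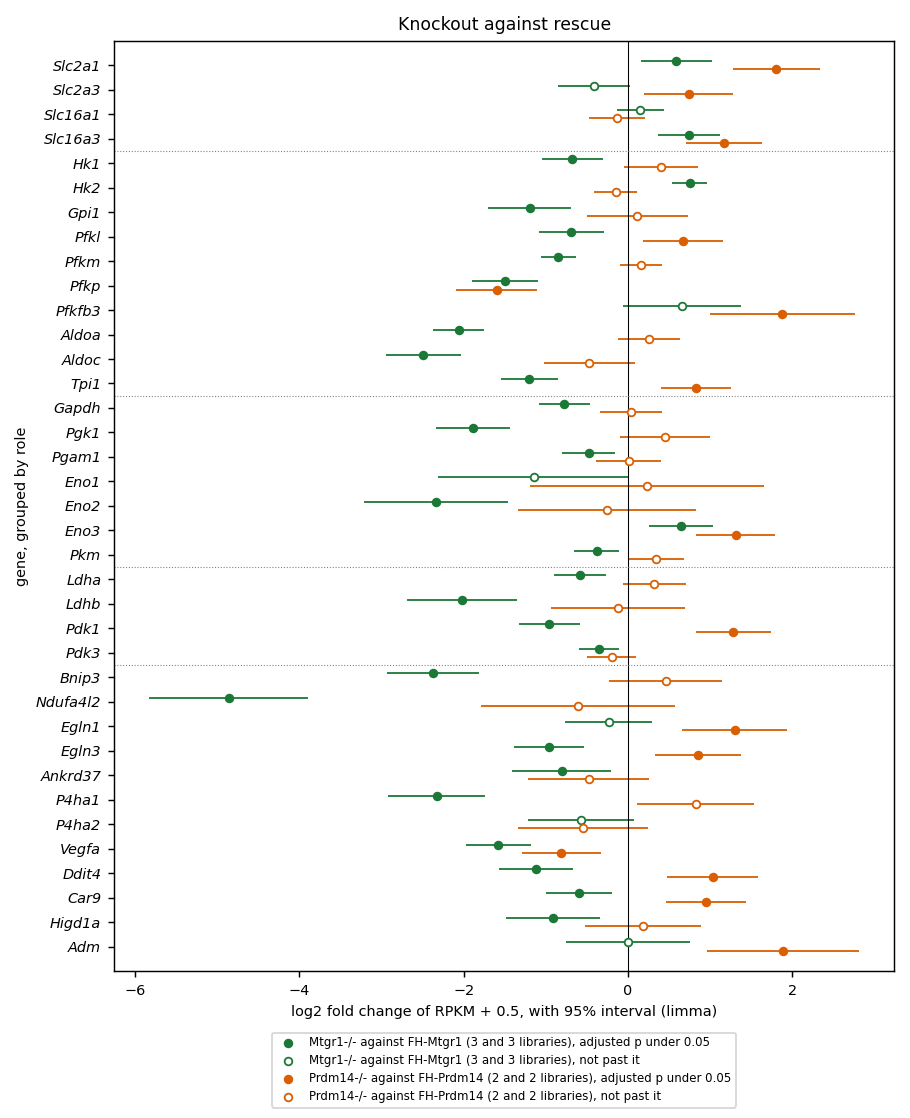
Points give the log2 fold change of each gene in Mtgr1-/- against FH-Mtgr1 (green) and in Prdm14-/- against FH-Prdm14 (orange), lines the 95% interval from limma, and filled points an adjusted p under 0.05. Green points lie left of orange ones for most genes, with Pfkp and Hk2 as exceptions past the threshold in at least 1 comparison.

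Knockouts were also compared with each other. Of the 37 genes 23 were lower and 1 higher in Mtgr1-/- than in Prdm14-/- cells, against 21.1% and 14.4% of all genes, or 35.4% in either direction (limma). The median log2 fold change was -0.98, and -0.04 for all genes. Ldhb, at 51.4, 46.8 and 80.1 RPKM in Mtgr1-/- and 602 and 325 RPKM in Prdm14-/- cells, differed most (log2 fold change -2.93, SE 0.34, adjusted p = 0.000104, limma). Ndufa4l2 (-2.40), Vegfa (-1.98), Aldoc (-1.82) and Eno2 (-1.80) followed on the log2 scale. Hk2 was the 1 gene higher in Mtgr1-/- cells, at 84.9, 89.5 and 80.2 against 65.4 and 71.8 RPKM (log2 fold change 0.31, SE 0.11, adjusted p = 0.0465, limma). This call was lost when any 1 of Mtgr1-/- clones A3 and C1 and Prdm14-/- clones F10 and G6 was left out, and in a fit of these conditions alone (highest adjusted p = 0.221, limma). No clone is shared between these conditions. Of the markers, 3 of 4 of extraembryonic endoderm were lower in Mtgr1-/- cells, 1 of 4 of trophoblast was higher and 1 lower, 1 of 3 of fibroblasts was lower, and 2 of 5 of mESCs were higher and 2 lower.

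Rescue lines differed as well. FH-Prdm14 had 15 genes lower and 6 higher than FH-Mtgr1, against 15.4% and 26.2% of all genes, or 41.6% in either direction (limma). The median log2 fold change was -0.52 for the 37 genes and 0.11 for all genes, and with median-of-ratios scaling -0.62 and 0.00, with 17 genes lower and 3 higher. With a correction for GC content 20 were lower and 4 higher. Of the markers, 3 of 5 of mESCs were higher in FH-Prdm14, 2 of 4 of extraembryonic endoderm and 1 of 3 of fibroblasts lower, and of 4 of trophoblast 1 was higher and 1 lower. Without FH-Prdm14 clone F10 the count of calls fell from 21 to 13, and without clone G6 to 11. Lower in FH-Prdm14 were Eno1 (log2 fold change -2.39, SE 0.60, adjusted p = 0.00766), Ndufa4l2 (log2 fold change -1.85, SE 0.50, adjusted p = 0.0111), P4ha1 (log2 fold change -1.82, SE 0.30, adjusted p = 0.000658), Bnip3 (log2 fold change -1.55, SE 0.29, adjusted p = 0.00144) and Tpi1 (log2 fold change -1.33, SE 0.18, adjusted p = 0.000169). Higher were Pfkp (log2 fold change 1.51, SE 0.21, adjusted p = 0.000203), Vegfa (log2 fold change 1.21, SE 0.20, adjusted p = 0.000719), Ldhb (log2 fold change 1.02, SE 0.34, adjusted p = 0.0311), Hk2 (log2 fold change 0.60, SE 0.11, adjusted p = 0.00126) and Pdk3 (log2 fold change 0.39, SE 0.13, adjusted p = 0.0257). Pfkp and Vegfa were highest among the serum+LIF lines in FH-Prdm14, at 120.0 and 111 and 31.6 and 28.7 RPKM, with 43.8, 43.2 and 34.3 and 11.1, 11.6 and 15.8 RPKM in FH-Mtgr1.

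The third question was what the E294K form, which is meant not to bind Mtgr1, does when it is put back in the place of wt Prdm14. Against FH-Prdm14, 11 genes were higher and 5 lower in E294K, with 6.35% and 13.2% of all genes called, or 19.5% in either direction (limma). The median log2 fold change was 0.42 for the 37 genes and -0.06 for all genes. Summed trophoblast markers were at 18.7 and 20.1 RPKM in E294K and 39.5 and 43.0 RPKM in FH-Prdm14, with 1 of 4 tested lower. This sum rests mainly on Tfap2c, at 12.2 and 14.0 against 35.4 and 38.6 RPKM. Eomes was at 1.56 and 1.98 against 2.49 and 2.41 RPKM. Hand1, at 3.66 and 3.44 against 1.09 and 1.19 RPKM, and Gata3, at 0.871 and 0.625 against 0.323 and 0.533 RPKM, lay the other way without being called. Of the other markers, 2 of 5 of mESCs were lower and 1 of 4 of extraembryonic endoderm was higher. With median-of-ratios scaling the split was 11 higher and 2 lower, and with a correction for GC content 12 and 3. With a block for the parental clone 8 genes were higher and 2 lower, and the count fell from 16 to 6 without FH-Prdm14 clone F10, to 3 without FH-Prdm14 clone G6, to 5 without E294K clone F10 and to 5 without E294K clone G6. Adm, Hk2 and Vegfa kept their call in every alternative. The log2 fold change of all genes fell with their GC content in this comparison (Spearman's rho -0.40 across 12652 genes, which are not independent), and the part of this in the result was not tested.

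The genes that were higher in E294K than in FH-Prdm14 came from all roles. The single wt serum+LIF library was at 226 RPKM for Eno1, 4.015 for Adm, 182 for Bnip3, 24.1 for Egln3 and 359.6 for Slc2a1. It was at 93.1 RPKM for Pdk1, 85.7 for Hk2, 514 for Tpi1, 95.05 for Slc16a3, 680 for Pgam1 and 1091.5 for Ldha. E294K was not tested against that library. Eno1 was at 135 and 121 RPKM in E294K and 23.9 and 20.9 RPKM in FH-Prdm14 (log2 fold change 2.49, SE 0.66, adjusted p = 0.0201, limma). Adm was at 5.12 and 4.82 against 0.551 and 0.733 RPKM (log2 fold change 2.26, SE 0.43, adjusted p = 0.00351, limma). Bnip3 was at 114 and 122 against 44.9 and 38.4 RPKM (log2 fold change 1.49, SE 0.32, adjusted p = 0.00663, limma). The clones of each line were close together in these genes, and the groups did not overlap. Egln3 was at 24.3 and 23.4 against 10.7 and 10.2 RPKM (log2 fold change 1.16, SE 0.24, adjusted p = 0.0062, limma), and Slc2a1 at 383 and 388 against 182 and 189 RPKM (log2 fold change 1.05, SE 0.24, adjusted p = 0.0107, limma). Pdk1 was at 69.6 and 67.5 against 35.0 and 31.4 RPKM, Hk2 at 129.6 and 139 against 76.1 and 76.4 RPKM and Tpi1 at 374 and 386 against 242 and 213 RPKM. Slc16a3, Pgam1 and Ldha also passed, but not with the block (adjusted p = 0.0774, 0.0532 and 0.0587, limma).

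Ldhb led the genes that were lower in E294K, at 161 and 161 RPKM against 517 and 449.5 RPKM (log2 fold change -1.58, SE 0.38, adjusted p = 0.0125, limma). Vegfa was at 13.3 and 12.7 against 31.6 and 28.7 RPKM (log2 fold change -1.19, SE 0.22, adjusted p = 0.00339, limma), and P4ha2, the other catalytic form of the collagen hydroxylase, at 11.2 and 10.0 against 20.6 and 28.9 RPKM (log2 fold change -1.17, SE 0.36, adjusted p = 0.0415, limma). Pdk3 (log2 fold change -0.43, SE 0.14, adjusted p = 0.0436) and Pfkm (log2 fold change -0.40, SE 0.12, adjusted p = 0.0321) passed as well, while with the block the adjusted p was 0.0928 for P4ha2, 0.0835 for Pdk3 and 0.0608 for Pfkm (limma). The wt serum+LIF library was at 252 RPKM for Ldhb, 16.1 for Vegfa, 9.81 for P4ha2, 24.2 for Pdk3 and 39.96 for Pfkm. For Pfkp, at 89.7 and 102 against 120.0 and 111 RPKM, the difference was not past the threshold, with a 95% interval of -0.76 to 0.22 on the log2 scale.

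Against the Prdm14-/- cells themselves, E294K had 6 genes higher and 8 lower, against 15.1% and 17.8% of all genes, or 32.9% in either direction (limma). The medians of the log2 fold change were -0.09 for the 37 genes and 0.00 for all genes. Of the markers, 3 of 4 of trophoblast and 2 of 3 of fibroblasts were lower in E294K and 2 of 5 of mESCs higher. Higher were Eno1 (log2 fold change 2.26, SE 0.66, adjusted p = 0.0214), Pfkp (log2 fold change 1.33, SE 0.23, adjusted p = 0.00165), Ankrd37 (log2 fold change 1.26, SE 0.34, adjusted p = 0.0154), Bnip3 (log2 fold change 1.03, SE 0.32, adjusted p = 0.0263) and Hk2 (log2 fold change 0.96, SE 0.12, adjusted p = 0.000301). Lower were Ldhb (log2 fold change -1.45, SE 0.38, adjusted p = 0.013), Egln1 (log2 fold change -1.19, SE 0.30, adjusted p = 0.011), Pfkfb3 (log2 fold change -1.17, SE 0.41, adjusted p = 0.0432), Eno3 (log2 fold change -1.0, SE 0.22, adjusted p = 0.00622) and Car9 (log2 fold change -0.81, SE 0.22, adjusted p = 0.0174). For Pfkfb3 and Egln1, which were at 14.6 and 25.7 and 28.3 and 38.7 RPKM in Prdm14-/- cells, E294K was at 8.32 and 8.34 and 14.2 and 14.3 RPKM, near FH-Prdm14 at 4.24 and 5.70 and 13.3 and 13.1 RPKM. Slc2a1 and Slc2a3 lost their call with the block (adjusted p = 0.0643 and 0.0517, limma). The count of 14 fell to 5 without Prdm14-/- clone G6, to 2 without E294K clone F10 and to 4 without E294K clone G6, and Pfkp and Hk2 kept their call in every alternative. Fold changes fell with GC content here too (Spearman's rho -0.42 across genes).

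Comparisons with wt cells rest on 1 serum+LIF library, which takes its spread from the other conditions. Mtgr1-/- cells had 22 genes lower and 1 higher than this library, against 22.1% and 14.9% of all genes, or 37.0% in either direction (limma). The median log2 fold change was -0.91, and -0.11 for all genes, or -0.80 and -0.01 with median-of-ratios scaling. Ndufa4l2 (log2 fold change -4.85, SE 0.63, adjusted p = 0.000211), Bnip3 (log2 fold change -2.94, SE 0.36, adjusted p = 0.000163), Pfkp (log2 fold change -2.63, SE 0.26, adjusted p = 4.75e-05), Aldoc (log2 fold change -2.38, SE 0.30, adjusted p = 0.000163) and Eno2 (log2 fold change -2.35, SE 0.57, adjusted p = 0.00727) fell most. In the wt library these genes were at 53.3, 182, 88.7, 35.7 and 9.05 RPKM. Eno3 was higher, at 17.7, 18.6 and 29.8 RPKM against 12.8 RPKM (log2 fold change 0.72, SE 0.26, adjusted p = 0.0425, limma). That call was lost without Mtgr1-/- clone C3 (adjusted p = 0.0588), without both C3 libraries (0.0579), with no filter on low values (0.0594) and in a fit of these conditions alone (0.159, limma). Of the markers, 2 of 4 of trophoblast were higher than in wt cells, of 3 of fibroblasts 2 were higher and 1 lower, 1 of 4 of extraembryonic endoderm was higher and 2 of 5 of mESCs were lower.

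Prdm14-/- cells had 5 genes lower and 1 higher than the wt library, against 13.7% and 11.7% of all genes, or 25.4% in either direction (limma). The share of 6 of 37 was below that of all genes. Of the markers, 2 of 4 of trophoblast, 1 of 3 of fibroblasts and 1 of 4 of extraembryonic endoderm were higher than in wt cells and 1 of 5 of mESCs was lower. Lower were Eno1 (log2 fold change -3.08, SE 0.80, adjusted p = 0.0186), Ndufa4l2 (log2 fold change -2.45, SE 0.67, adjusted p = 0.0221), Bnip3 (log2 fold change -1.66, SE 0.39, adjusted p = 0.0121), Pfkp (log2 fold change -1.22, SE 0.28, adjusted p = 0.0108) and Gapdh (log2 fold change -0.69, SE 0.21, adjusted p = 0.0336), and Pfkm was higher (log2 fold change 0.53, SE 0.14, adjusted p = 0.0216). Without Prdm14-/- clone G6 limma called 0 of these genes, with 10 at an unadjusted p under 0.05, and voom was not run without this clone. Fold changes of all genes rose with GC content (Spearman's rho 0.51 across 12652 genes), and with a correction for it 5 genes were lower and 0 higher (limma). Slc2a1, 554 and 762 RPKM in Prdm14-/- cells, was at 359.6 RPKM in wt cells, and that difference was not past the threshold (95% interval of the log2 fold change 0.20 to 1.5).

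The medium was compared in wt cells, with 2 libraries in 2i+LIF and 1 in serum+LIF. In 2i+LIF 2 genes were higher and 5 lower, against 9.28% and 13.6% of all genes, or 22.9% in either direction (limma). The medians were -0.06 and -0.10, and 0.04 and -0.01 with median-of-ratios scaling. With a correction for GC content 3 genes were higher and 3 lower. Of the markers, 1 of 3 of fibroblasts and 1 of 4 of extraembryonic endoderm were lower in 2i+LIF, and of 5 of mESCs 2 were higher and 1 lower. Pdk1 was at 25.1 and 20.2 RPKM in 2i+LIF and 93.1 RPKM in serum+LIF (log2 fold change -2.02, SE 0.26, adjusted p = 0.000354, limma), and kept its call in every alternative. Hk1 was at 68.1 and 108 against 26.7 RPKM (log2 fold change 1.67, SE 0.25, adjusted p = 0.00108, limma), and Vegfa at 33.1 and 42.7 against 16.1 RPKM (log2 fold change 1.20, SE 0.27, adjusted p = 0.00926, limma). Eno1 (log2 fold change -2.62, SE 0.80, adjusted p = 0.0351), Ddit4 (log2 fold change -1.55, SE 0.31, adjusted p = 0.00491), Bnip3 (log2 fold change -1.28, SE 0.39, adjusted p = 0.0327) and Pdk3 (log2 fold change -0.56, SE 0.17, adjusted p = 0.0333) were lower.

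The 2i+LIF libraries were far apart in these genes. Ndufa4l2 was at 19.7 and 108 RPKM, Eno1 at 14.8 and 88.2 RPKM and P4ha1 at 26.9 and 77.4 RPKM. Pgk1 was at 527 and 1109.9 RPKM and Eno2 at 3.21 and 17.7 RPKM. In each the second library was the higher one. With the first library left out 11 genes were called, 9 of them higher, and with the second left out 14, 12 of them lower.

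Other genes of the pathway, from lists made beside the 37 genes, were counted in the same fits, where the share of all genes called was 26.2% (higher) and 26.1% (lower) for the Mtgr1 lines and 11.4% and 13.8% for the Prdm14 lines. Of 9 hypoxia-inducible factors and their regulators, 5 went up and 2 went down without Mtgr1 relative to FH-Mtgr1 cells. Cited2, which competes with hypoxia-inducible factors for the coactivator CBP/p300, was at 103, 108 and 172 RPKM against 21.8, 22.9 and 25.3 RPKM (log2 fold change 2.39, SE 0.40, adjusted p = 0.000374, limma). Epas1, which encodes HIF-2α, was at 3.65, 4.61 and 4.29 against 1.68, 2.22 and 1.92 RPKM, and Arnt2 at 2.46, 2.25 and 2.30 against 1.46, 1.58 and 0.569 RPKM. The shared partner Arnt was lower, at 19.3, 19.5 and 16.0 against 45.6, 45.2 and 35.3 RPKM (log2 fold change -1.18, SE 0.14, adjusted p = 3.20e-05, limma), and so was Vhl, at 5.79, 5.92 and 6.43 against 10.2, 10.2 and 14.2 RPKM. Hif1a, named after its values were seen, was at 31.8, 29.5 and 26.9 against 19.7, 23.1 and 24.8 RPKM. In Prdm14-/- against FH-Prdm14, 2 of the 9 were higher and 2 lower. Cited2 was at 90 and 217 against 16.2 and 21.6 RPKM and Arnt at 18.3 and 21.6 against 30.0 and 33.8 RPKM, both called in the same direction as in the Mtgr1 comparison, whereas Epas1 was lower, at 4.83 and 4.16 against 16.8 and 16.8 RPKM.

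Among 26 tested genes of another list of hypoxia-inducible genes, 13 were lower and 3 higher in Mtgr1-/- cells, with a median log2 fold change of -0.60. Pgm2 was at 8.66, 7.99 and 10.3 RPKM against 48.4, 41.1 and 30.7 RPKM (log2 fold change -2.08, SE 0.29, adjusted p = 9.53e-05, limma), followed by Fam162a, at 69.8, 71.8 and 59.4 against 254, 239.5 and 168 RPKM, and Selenbp1, at 0.201, 0.164 and 0.262 against 1.59, 1.93 and 1.45 RPKM. Gys1, a glycogen synthase, and Pfkfb4 were among the higher ones. In Prdm14-/- against FH-Prdm14 4 of the 26 were higher and 4 lower, with a median of 0.04.

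Genes that answer to glucose inside the cell were also lower without Mtgr1, in 3 of 5 cases. Txnip, which rises with glucose and limits its uptake, was at 18.6, 17.5 and 24.6 RPKM against 101, 110.1 and 129 RPKM (log2 fold change -2.47, SE 0.17, adjusted p = 1.22e-06, limma). Its relative Arrdc4 was at 6.75, 6.32 and 12.4 against 26.1, 23.6 and 21.5 RPKM, and Mlxipl, a factor that senses glucose, at 2.42, 2.87 and 2.18 against 5.88, 4.99 and 4.87 RPKM. In Prdm14-/- against FH-Prdm14 limma called 0 of the 5, with 1 at an unadjusted p under 0.05 and 0 called by voom, and Txnip was at 231 and 194 against 222 and 206 RPKM. E294K, at 93.1 and 108 RPKM, was between both knockouts in Txnip.

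Around the pyruvate dehydrogenase complex 4 of 11 tested genes were lower and 2 higher in Mtgr1-/- cells, a share near the 52.3% of all genes. Pdk4 was at 1.05, 0.881 and 0.716 against 6.87, 7.12 and 10.2 RPKM (log2 fold change -2.62, SE 0.25, adjusted p = 8.61e-06, limma) and Pdk2 at 1.28, 1.34 and 1.95 against 5.96, 5.58 and 5.49 RPKM, so that all 4 pyruvate dehydrogenase kinases were lower. Mpc1, of the mitochondrial pyruvate carrier, was at 3.15, 4.21 and 1.75 against 8.95, 8.11 and 11.9 RPKM, and Pdhx, a structural subunit, was higher, at 10.7, 11.2 and 10.2 against 5.17, 5.53 and 5.94 RPKM. In the pentose phosphate pathway, which makes NADPH from glucose 6-phosphate, 2 of 7 tested genes were higher and 2 lower, near the 26.2% and 26.1% of all genes. Its NADPH-forming steps G6pdx, at 42.1, 43.8 and 39.6 against 26.8, 27.7 and 25.4 RPKM, and Pgd, at 118, 118 and 143 against 51.3, 50.2 and 52.8 RPKM (log2 fold change 1.28, SE 0.15, adjusted p = 3.82e-05, limma), were the higher ones, and Taldo1, at 135, 136 and 128 against 231, 203 and 230.5 RPKM, and Rpe were lower. In Prdm14-/- against FH-Prdm14 limma called 0 of these 7, with 2 at an unadjusted p under 0.05 and 1 called by voom.

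**Figure D5:**
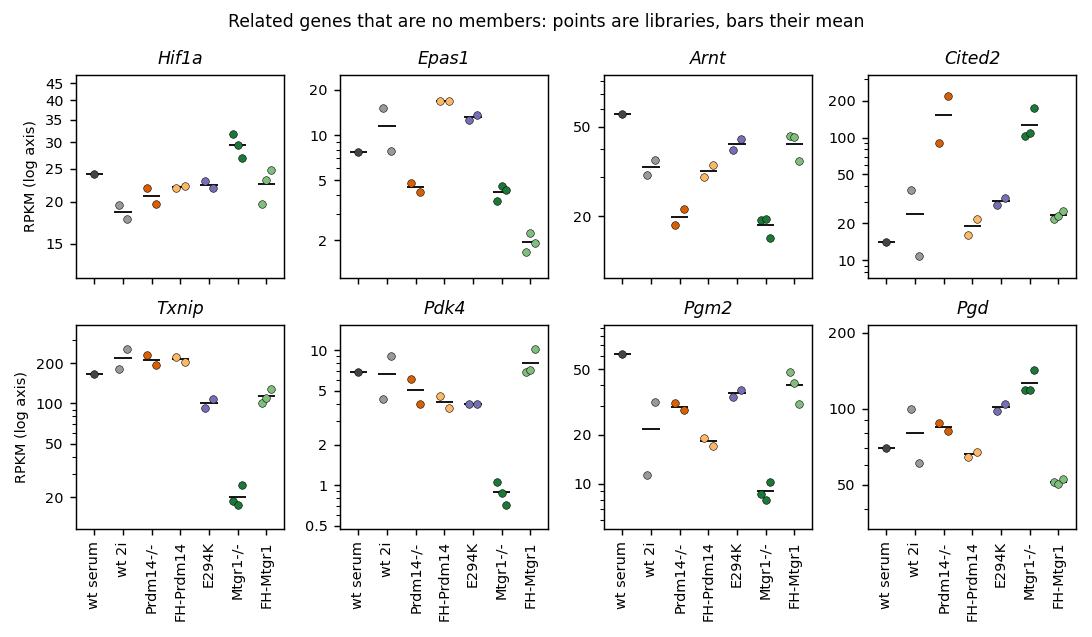
Points give the RPKM of 8 related genes in each library on a log axis, and bars the mean of the libraries of a condition. Txnip, Pdk4 and Pgm2 are lowest in the 3 Mtgr1-/- libraries, Cited2 is high in both knockouts, and Pgd is lower in FH-Mtgr1 than in Mtgr1-/- cells.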

How the data were processed

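RNA-seq libraries were made from poly(A) RNA and read as single ends of 51 or 76 bases. The authors aligned the reads with Tophat to mm9, used HTSeq to count them over RefSeq genes (version not given in the sources used here) and deposited RPKM values with gene lengths. The processing notes of the submitters name GRCm38 as well as mm9. Multiplied back by length, 100% of the values were whole reads within 0.01, which gave the depth.

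Values were taken as log2(RPKM + 0.5) of genes that reached an RPKM of 1 in 2 or more libraries, a scale that understates the change of low genes, and all 15 libraries were fitted in 1 model with 1 mean per condition (limma 3.58.1, eBayes with trend, in R 4.3.3). P-values were adjusted over all genes by the Benjamini-Hochberg method, two-sided, with a threshold of 0.05. The fit was also run on simulated reads with a fixed spread and no differences between clones. Such a run does not show how often calls in the real data are wrong. The rest was done in Python 3.11.15 (numpy 2.4.6, pandas 2.3.3, matplotlib 3.10.9) and with BLAST+ 2.17.0. The members and lists were chosen with earlier results of these data known.

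Libraries are named by their labels. Values in every library are given for members that changed at least 2-fold past the threshold in at least 1 comparison and statistics for at most the 5 largest changes in each direction of a comparison. Of other lists at most the 3 largest changes in each direction are named.

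Libraries of a rescue line and of its knockout come from the same clone, as their titles say. Deviations from the condition means correlated across genes with r of 0.0633 (A3), -0.182 (C1) and 0.0278 (C3) between the Mtgr1 lines, 0.299 between Prdm14-/- and FH-Prdm14, 0.0797 between E294K and FH-Prdm14 and 0.0405 between E294K and Prdm14-/-. Alternatives were pseudocounts of 0.1 and 1, no filter, a minimum RPKM of 5, median-of-ratios scaling, voom on the reads computed back, a GC correction (lowess, span 0.3), a block for the clone, only the compared conditions, and leaving out each library. Leaving out both C3 libraries was chosen after seeing the data. ChIP-seq samples were not analysed here.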

Additional observations from a re-analysis of the deposited data

Results flagged for a closer look

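The test of the difference between the knockout effects (Mtgr1-/- against FH-Mtgr1 minus Prdm14-/- against FH-Prdm14, log2 scale, limma, adjusted p under 0.05 over all genes) picked out 25 of the 37 genes, and each is listed here because both effects differed. A negative value means a lower, or more negative, effect in the Mtgr1 lines. Among transporters the difference was -1.22 for Slc2a1 and -1.15 for Slc2a3. In the upper steps it was -2.32 for Aldoa, -2.03 for Tpi1, -2.02 for Aldoc, -1.36 for Pfkl, -1.31 for Gpi1, -1.07 for Hk1 and -1.01 for Pfkm, and Hk2 was the exception with a positive value of 0.90. In the lower steps it was -2.33 for Pgk1, -2.08 for Eno2, -0.82 for Gapdh and -0.73 for Pkm. Of the genes that act on pyruvate, Pdk1 had -2.24, Ldhb -1.90 and Ldha -0.91. In the hypoxia response it was -4.25 for Ndufa4l2, -3.15 for P4ha1, -2.83 for Bnip3, -2.15 for Ddit4, -1.88 for Adm, -1.82 for Egln3, -1.55 for Car9 and -1.53 for Egln1.

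Of these 25, 16 kept their call in every alternative and library removal run. The others were Slc2a1, Slc2a3, Eno2, Gapdh, Ldhb, Gpi1, Adm, Egln1 and Pkm, and each of them lost it without at least 1 of the Prdm14-/- or FH-Prdm14 libraries. A block for the parental clone also ended the calls of Eno2 (adjusted p = 0.0652), Adm (0.0559) and Pkm (0.0514, limma).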

How the results depend on the processing

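None of the called genes turned its direction in any alternative. All 136 medians of the members under alternatives stayed within the median standard error of the members' single log2 fold changes, a lenient limit for a median over genes. With a replicate block by parental clone, 16 calls of E294K against FH-Prdm14 became 10, and the block ended the single calls given beside the results and no other member's call. In fits limited to the conditions being compared, E294K against FH-Prdm14 gave 30 (16 in the fit of all conditions), E294K against Prdm14-/- 23 (14), Prdm14-/- against wt 10 (6) and 2i+LIF against serum+LIF 1 (7). With 1 library left out, the count ran from 26 to 31 for Mtgr1-/- against FH-Mtgr1 (30), 7 to 10 for Prdm14-/- against FH-Prdm14 (15), 3 to 6 for E294K against FH-Prdm14 (16), 2 to 10 for E294K against Prdm14-/- (14), 11 to 24 for FH-Prdm14 against FH-Mtgr1 (21), 18 to 27 for Mtgr1-/- against Prdm14-/- (24), 20 to 21 for Mtgr1-/- against wt (23), 0 to 9 for Prdm14-/- against wt (6), 11 to 14 for 2i+LIF against serum+LIF (7) and 19 to 28 for the difference between knockout effects (25). Where this leaves 1 library in a condition, that library is assumed to vary like the others, and fewer samples enter the fit. The cause of the other changes was not tested. With both C3 libraries left out, the Mtgr1 comparison kept 29 calls and the difference between knockout effects 26. Reads shared with copies limit the levels of Pgk1, Pgam1, Gapdh, Eno1 and Bnip3.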

Other observations

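Tissue-restricted forms and copies of glycolytic enzymes, Eno1b among them, were read beside the genes of the report. Of 16 such genes in the files, 8 had enough reads to be tested. In Mtgr1-/- against FH-Mtgr1 cells 4 were lower and 0 higher, against 26.1% and 26.2% of all genes, or 52.3% in either direction. In Prdm14-/- against FH-Prdm14 3 were lower and 1 higher, against 13.8% and 11.4%. Pgam2, the muscle phosphoglycerate mutase, was at 0.589, 1.53 and 1.36 RPKM against 6.56, 6.09 and 6.94 RPKM (log2 fold change -2.13, SE 0.22, adjusted p = 1.35e-05, limma), and in Prdm14-/- against FH-Prdm14 at 3.52 and 5.42 against 11.4 and 11.4 RPKM (log2 fold change -1.29, SE 0.27, adjusted p = 0.00392, limma). Ldhc, the testis lactate dehydrogenase, was at 0.629, 1.18 and 1.15 against 2.49, 3.17 and 3.66 RPKM (log2 fold change -1.29, SE 0.21, adjusted p = 0.000289, limma). Aldoart1, a testis aldolase close in sequence to Aldoa, was at 0.543, 1.05 and 0.516 against 1.80, 2.46 and 6.47 RPKM (log2 fold change -1.62, SE 0.34, adjusted p = 0.00189, limma). Pgam2, Ldhc and Aldoart1 were at low levels, and reads that also match the abundant relative cannot be told apart where sequences are identical.

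Bnip3l, the mitophagy receptor closest to Bnip3, was at 25.4, 22.8 and 20.8 RPKM in Mtgr1-/- cells and 48.4, 44.2 and 50.8 RPKM in FH-Mtgr1, and at 39.4 and 30.2 and 36.9 and 34.4 RPKM in Prdm14-/- and FH-Prdm14.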
